A study of Mus musculus with 36 samples.

Results

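The 7 genes described here are the RNA-binding proteins and let-7 targets of one regulatory axis: Lin28a, Lin28b, Trim71, Hmga2, Igf2bp1, Igf2bp2 and Igf2bp3. They were taken by symbol from the deposited expression table, all 7 had a row among its 25965 genes, and all 7 were among the 14612 genes that passed the filter on low values. RNA-seq was made from Xmas mouse embryonic stem cells (mESCs), female C57/Bl6 lines in which the X chromosomes are told apart by fluorescence, GFP marking one and mCherry its partner, with each reporter placed in the 3′ region of Hprt and each allele derived from a single targeted clone. Every library carries both this background and the same change of medium: cells were weaned in steps from 2i and LIF, with the MEK inhibitor PD0325901 and the GSK3 inhibitor CHIR99021, into a serum medium without LIF. RNA was taken on each of days 0 to 8, day 0 being the undifferentiated state. On every day there were 4 libraries, named X14 double, X14 single, X18 double and X18 single, where X14 and X18 are the lines, and where double and single serve only as names because their meaning is not given. The 36 libraries thus follow 4 culture series, and separate differentiations of a series are not described.

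The let-7 family are small RNAs that accumulate as cells differentiate and repress mRNAs carrying matches to their seed in the 3′ UTR. Lin28a and Lin28b bind let-7 precursors and block their maturation, and Lin28a marks them for uridylation and decay. The mRNAs of both are let-7 targets, so the proteins and the small RNA repress each other. Trim71 (LIN41), Hmga2 and the Igf2bp genes are classic targets of let-7. Of these Trim71, Hmga2, Igf2bp1 and Igf2bp3 are high in embryonic and low in most adult tissues. In mESCs Lin28a is known for its rise on exit from the naive state.

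Let-7 itself was not analysed here, but its sequence shows what ties the 7 genes together. The RefSeq table for GRCm38.p6 gave 11 let-7 family genes with 9 distinct mature sequences, and all 11 share the seed at bases 2 to 8, written in capitals. Of these 9 sequences 4 are shown because they differ outside the seed and not in it.
let-7a: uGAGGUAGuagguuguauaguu
let-7e: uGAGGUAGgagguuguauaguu
let-7g: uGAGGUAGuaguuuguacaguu
miR-98: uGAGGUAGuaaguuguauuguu
The let-7g mature sequence lies at chr9:106178846-106178867 on the plus strand and that of miR-98 at chrX:151913229-151913250, also on the plus strand, close to a copy of let-7f at chrX:151912353-151912374.

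A match to this seed reads CTACCTC in the mRNA (searched on the transcript strand only). All 7 genes held at least 1 match in the longest GENCODE M21 3′ UTR of the gene, 20 matches in all, of which 13 were followed by an A. Among the 12300 tested genes with such a UTR, 10.6% held a match and 0.0894% held 4 or more. Lin28b, Trim71, Hmga2 and Igf2bp1 had 4 matches each, Lin28a had 2, and Igf2bp2 and Igf2bp3 had 1. Their UTRs are long, from 1784 to 6337 bases against a median of 1153. Of genes with a UTR of similar length (within 0.8 to 1.25 times), 0.420% held as many matches as Lin28b, 0.690% as many as Trim71, 0.185% as many as Hmga2, 0.485% as many as Igf2bp1 and 2.25% as many as Lin28a, but 12.6% as many as Igf2bp2 and 13.6% as many as Igf2bp3. The match nearest to the stop codon among those followed by an A is shown for each gene, with the match and its A in capitals.
Lin28a: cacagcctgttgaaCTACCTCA
Lin28b: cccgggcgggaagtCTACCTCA
Trim71: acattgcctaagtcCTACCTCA
Hmga2: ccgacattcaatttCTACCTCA
Igf2bp1: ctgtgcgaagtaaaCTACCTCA
Igf2bp2: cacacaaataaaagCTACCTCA
Igf2bp3: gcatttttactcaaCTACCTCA
On GRCm38 (mm10) these lie at chr4:134005189-134005210 for Lin28a, chr10:45381022-45381043 for Lin28b, chr9:114512472-114512493 for Trim71, chr10:120364224-120364245 for Hmga2, chr11:95961778-95961799 for Igf2bp1, chr16:22059473-22059494 for Igf2bp2 and chr6:49086787-49086808 for Igf2bp3, all on the minus strand. The matches in Hmga2 and Lin28b start 58 and 36 bases after the stop codon. A match is a description of letters, and binding was not measured. The 7 genes are known let-7 targets, so that they hold matches was not an open question.

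The 7 genes are protein coding, lie on 6 chromosomes, and are all transcribed from the minus strand: Lin28a at chr4:134003330-134018841, Lin28b at chr10:45376620-45470201, Trim71 at chr9:114511275-114564369, Hmga2 at chr10:120361275-120476469, Igf2bp1 at chr11:95957163-96005940, Igf2bp2 at chr16:22059009-22163299 and Igf2bp3 at chr6:49085221-49214954. The merged exons used for counting were shorter than in GENCODE M21 for Lin28b (5402 against 9065 bases), Trim71 (5190 against 9332), Igf2bp3 (4344 against 8159) and Igf2bp2 (7131 against 7402), so reads from the end of the long Trim71 UTR, which holds 2 of its 4 matches, were not counted. Igf2bp3 overlaps 2410003K15Rik, and whether counting used the strand is not stated, so the reads of these genes cannot be told apart.

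Levels are given in RPKM, reads per kilobase of exon and per 1000000 reads, which allows comparison between genes. Differences between days are on the log2 scale with their standard error (SE) and were tested with limma over 14612 genes with Benjamini-Hochberg adjustment, and a gene was called when its adjusted p was under 0.05 and its log2 difference at least 1. Reads in genes ran from 612740 to 2445826 per library (median 1297944), so 3 reads stand for 1.04 to 3.90 RPM (reads per 1000000 reads, with no length correction). All 7 genes had reads in all 36 libraries, from 1046 reads in total for Hmga2 and 1662 for Lin28b to 29602 for Igf2bp1, and Hmga2 rested on as few as 3 reads in a library of day 0. The cells lost naive markers and gained primed ones between day 0 and day 8. The list of naive markers included the general pluripotency factors Pou5f1, Sox2 and Nanog, which are not specific to the naive state. All 8 naive markers were called lower (11.1% of all tested genes) and all 4 epiblast-like markers higher (23.9%). Between days 4 and 8, however, 3 of the 4 epiblast-like markers were called lower, where 9.01% of all genes were called lower and 15.7% higher. Markers of some other lineages were called higher: 3 of 4 fibroblast markers (with 1 lower), 2 of 3 tested trophoblast markers and 2 of 4 endoderm markers. None of the endoderm markers had a read on day 4. Beyond these, 1 of 3 tested mesoderm markers was called higher, 1 of 4 germ cell markers higher and 1 lower, and 1 of 4 neural markers lower.

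Libraries stood apart in ways that touch these genes. The X14 libraries of day 0 went against their label: X-linked genes were lower in double than in single relative to autosomal genes by a median log2 of -1.14, against a range of 0.25 to 1.05 higher in double in the other 17 pairs. Libraries also differed in how high long genes stood against short genes. A long-gene score was therefore computed for each library as the median log2 deviation, from each gene's mean over all libraries, of 3157 genes with over 5000 bases of exon, less that of 983 genes with under 1500 bases. On day 0 it was 0.50 in X14 double, -0.54 in X14 single, -1.67 in X18 double and -1.13 in X18 single. From day 2 on it lay between -0.60 and 1.09, except for -1.12 in the X14 double library of day 5, which is also the shallowest. The members had 3996 to 9682 bases of counted exon, against a median of 3851 over the other genes above 10 RPM. Lin28a (3996) and Igf2bp3 (4344) were under the 5000 bases that set a long gene here. Within days the level of Igf2bp2 followed this score with Pearson's r = 0.90, Trim71 with 0.89, Igf2bp1 with 0.86 and Igf2bp3 with 0.72. For Lin28a r was 0.45, for Hmga2 0.30 and for Lin28b 0.21, against a median of 0.31 over the other genes above 10 RPM. Each r is over 36 libraries that share their normalization and is given as a description. Every comparison was repeated with the score in the fit, a choice made after seeing the data. The score also differed between days, from -1.67 to 0.50 on day 0 and from 0.41 to 0.70 on day 6. A fit with the score can therefore also take out change between days, and such change cannot be told apart from the score.

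**Figure D1:**
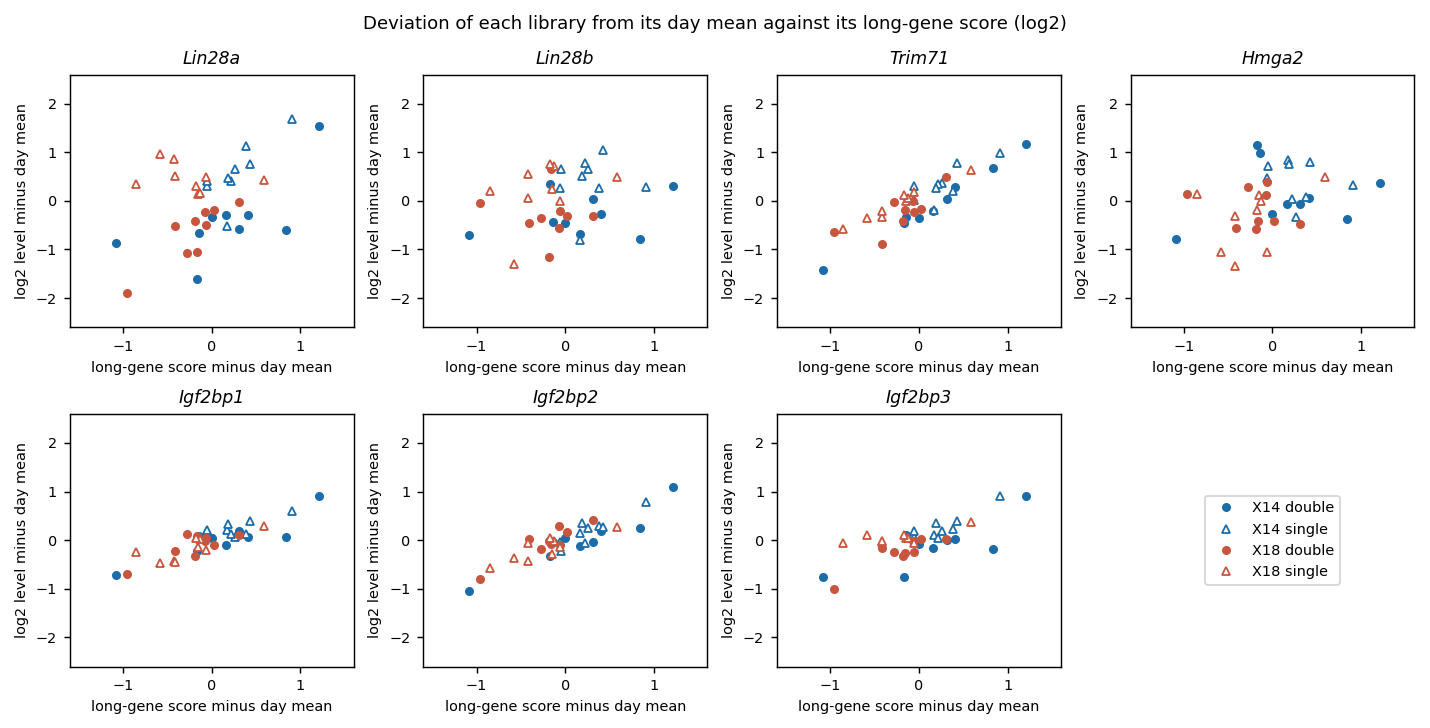
Each point is a library, placed by its long-gene score less the mean of its day (horizontal axis, log2) and by the level of the gene less the mean of its day (vertical axis, log2); blue is line X14, red X18, filled circles double and open triangles single. Points of Trim71, Igf2bp1 and Igf2bp2 lie along a rising line, whereas those of Lin28a, Lin28b and Hmga2 scatter.

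To ask when the axis changed during differentiation, each day was compared with day 0, so all 8 comparisons share the same 4 libraries. Of the 7 genes none was called on day 1, when 0.0684% of all tested genes were called. On day 2 the 7 genes included 2 called, both higher (background 2.09% of genes higher), on day 3 they included 4 (5.72%), on day 4 again 4 (12.2%), on day 5 they included 3 (15.8%), on day 6 they included 5 (22.4%), on day 7 they included 3 (23.8%) and on day 8 again 3 (23.9%). None was called lower on any day. Leaving out the X14 double series raised these counts to 4, 5, 5, 6, 7, 7 and 5 of 7 on days 2 to 8. The doubt about the day 0 labels falls on X14 double and X14 single alike, because it rests on the difference between them. Leaving out X18 double or X18 single instead lowered the counts to 1 and 2 on day 3. With either of these left out, the counts were 2 for day 4, 3 for day 6 and 0 for day 2. Without X14 single they were 0 on day 2, 2 on day 3 and 1 on day 5. With the long-gene score they were 0 on day 2, 1 on day 3 and 2 on each of days 4 to 8. The genes followed 4 courses: Lin28a and Lin28b rose to their highest means on day 4, within the spread of the next highest day, Hmga2 was called from day 5 on, Igf2bp3 had its highest means on days 6 to 8 without a call, and Trim71, Igf2bp1 and Igf2bp2 had their highest means on day 3 or 4, again within the spread of the next, with calls that were lost when the long-gene score was in the fit. Because the score itself differed between days, its part in those lost calls cannot be told apart from change with day. Leaving out the score, the 7 genes all varied over the 9 days in limma's F-test (adjusted p under 0.05), as did 65.2% of all tested genes.

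**Figure D2:**
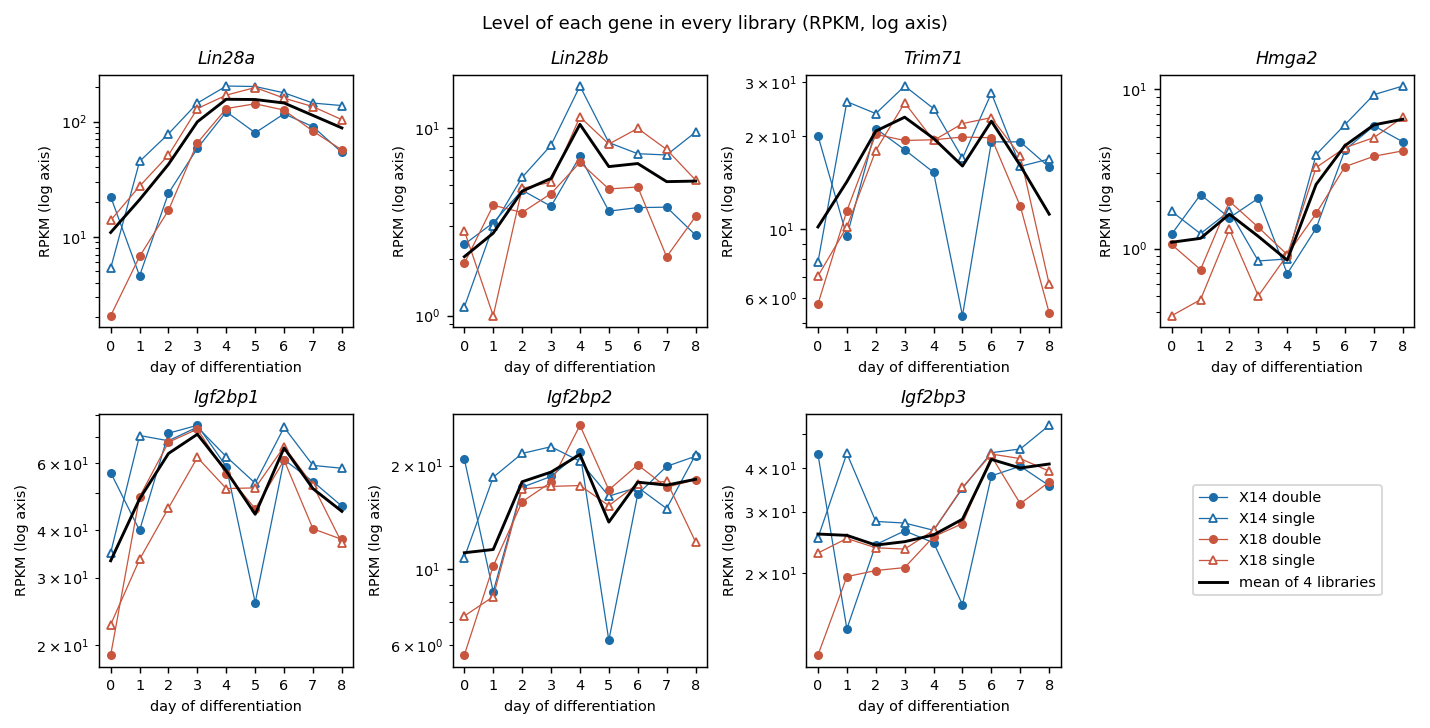
Level of each gene in RPKM (vertical log axis, own scale per gene) on days 0 to 8; each coloured line joins the libraries of a culture series and the black line is the mean of the 4 libraries. Lin28a climbs from a mean of 10.9 to 157 on day 4, and Hmga2 has means of 0.845 to 1.64 up to day 4 and reaches 6.50 on day 8.

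Lin28a, the main LIN28 protein of mESCs, had the largest difference from day 0 among the 7 genes. On day 0 it stood at 22.3 in X14 double, 5.33 in X14 single, 2.06 in X18 double and 13.9 RPKM in X18 single, so undifferentiated libraries differed 10.9-fold among themselves. On day 1 the values in the same order were 4.58, 45.2, 6.74 and 27.5 RPKM. Both single libraries were then above both double libraries and above every library of day 0. By day 4 Lin28a had reached 122, 204, 130 and 170 RPKM, and no library of day 4 overlapped day 0, which 11.9% of all genes showed in this direction. Its mean rose from 10.9 ± 9.11 on day 0 (SD, n = 4) through 42.6 ± 28.0 on day 2 and 99.7 ± 44.0 on day 3 to 157 ± 38.1 on day 4, a log2 difference of 4.33 (SE 0.58, limma adjusted p = 9.0e-07). Days 4, 5 and 6 (157, 156 and 145 RPKM) followed each other in order of level within their spread. Thereafter the level slipped to 113 ± 31.2 on day 7 and to 88.1 ± 40.2 on day 8, when the 4 libraries held 54.0, 138, 56.8 and 104 RPKM. The fall from day 4 to day 8 was not called (log2 -0.91, SE 0.58, limma adjusted p = 0.243), although each series was lower on day 8. Against day 0 Lin28a was called on days 2 to 8. The calls of days 3 to 8 held under every alternative that was run, with 3.02 on day 3, 3.83 on day 4 and 2.69 on day 8 with the long-gene score in the fit (limma adjusted p = 6.5e-04, 4.6e-06 and 4.8e-04). The day 2 difference of 2.23 (limma adjusted p = 0.0273) was lost with the score (1.69, 0.117), without X14 single (1.68, 0.150), without X18 double (1.95, 0.323) and without X18 single (2.34, 0.205), as well as with voom (2.06, 0.0593), with thinning to one depth (2.14, 0.0592) and with only the 2 days in the fit (2.23, 0.246).

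Lin28b, the paralogue that blocks let-7 maturation from the nucleus in many cells, was much lower and also had its highest mean on day 4. It stood at 2.40, 1.11, 1.90 and 2.84 RPKM on day 0, in the order X14 double, X14 single, X18 double, X18 single. On day 4 it stood at 7.09, 16.8, 6.57 and 11.5 RPKM, all above day 0. The mean went from 2.06 ± 0.741 to 10.5 ± 4.74 RPKM (log2 2.32, SE 0.45, limma adjusted p = 2.5e-04), the only call for Lin28b that no alternative ended. Means from day 5 to day 8 lay between 5.19 and 6.48 RPKM and did not differ from each other beyond their spread. The smaller differences of days 3, 6, 7 and 8 from day 0 (1.41, 1.63, 1.23 and 1.25) lost their call with the long-gene score (1.22, 1.32, 0.94 and 1.0, limma adjusted p = 0.112, 0.0564, 0.153 and 0.104), whereas day 5 kept it (1.59 and 1.42, limma adjusted p = 0.00634 and 0.0170). Without the X14 single series the calls of days 3, 5, 7 and 8 were lost (0.92, 1.15, 0.74 and 0.63), and without X18 double or X18 single that of day 3 was lost as well (1.46 and 1.59, limma adjusted p = 0.148 and 0.0879), as was that of day 7 without X18 single (1.16, 0.0775). Each series was lower on day 8 than on day 4, when the level had been 10.5 against 5.22 ± 3.08 RPKM. That fall missed the threshold (log2 -1.07, SE 0.45, limma adjusted p = 0.0676) and passed it with the replicate block (0.0391) and with the long-gene score (-1.15, 0.0408). Per length Lin28a exceeded Lin28b in every library. The ratio of Lin28a to Lin28b was 5.02 ± 3.37 on day 0, 11.5 ± 12.5 on day 1 and 16 ± 3.26 on day 4 (SD, n = 4). It was 25.4 ± 10.1 on day 7 and 17.7 ± 2.62 on day 8. The ranges of day 4 (12.2 to 19.8) and day 7 (17.5 to 40.0) overlapped. The ratio ran from 1.08 in the lowest library of day 0 to 40.0 in the highest of day 7. Those were X18 double libraries with 10 and 13 reads of Lin28b.

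Trim71, an RNA-binding ubiquitin ligase that silences mRNAs in early embryos and stem cells, changed little in comparison. On day 0 the libraries held 20.1 (X14 double), 7.85 (X14 single), 5.74 (X18 double) and 7.07 RPKM (X18 single), and the X14 double library lay apart from the others. On day 3, the day of its highest mean, they held 18.1, 29.1, 19.4 and 25.7 RPKM. The range of day 3 overlapped that of day 0, because X14 double was lower on day 3. The mean rose from 10.2 ± 6.64 to 23.1 ± 5.20 RPKM (log2 1.34, SE 0.39, limma adjusted p = 0.0196) and Trim71 was also called on days 4 (1.12, 0.0308) and 6 (1.31, 0.00667). The day 2 difference (1.21, 0.0612) was called with the replicate block (0.0388) and without X14 double (1.59, 0.00313). With the long-gene score none of these calls remained: the differences were 0.62 on day 3, 0.50 on day 4 and 0.13 on day 6 (limma adjusted p = 0.0555, 0.0760 and 0.698). Leaving out X14 single, X18 double or X18 single also ended the calls of days 3 and 4, with differences of 0.90 to 1.20, and leaving out either X18 series that of day 6 (1.15 and 1.18, limma adjusted p = 0.0662 and 0.0650). By day 8 Trim71 was back near its first level, at 11.2 ± 6.02 RPKM. There the X14 libraries held 15.9 and 16.9 and the X18 libraries 5.37 and 6.65 RPKM. The fall from day 4 to day 8 (log2 -0.97, SE 0.39, limma adjusted p = 0.0507) was called with the score (-1.26, 6.0e-06) and without X14 double (-1.32, 0.00459). Neighbours in the order of days, from day 3 at the top to day 0 at the bottom, differed by less than their spread.

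**Figure D3:**
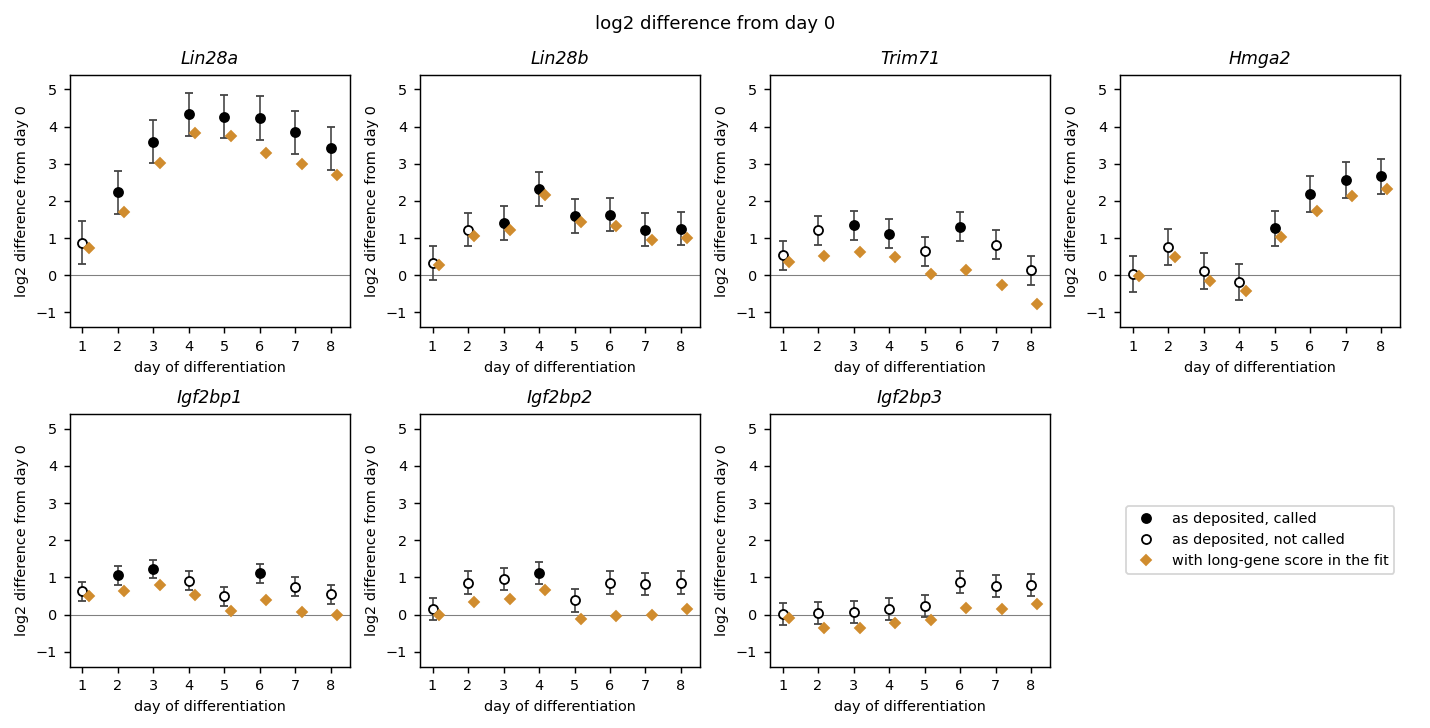
log2 difference of each day from day 0 (vertical axis) for days 1 to 8; black circles are the fit to the deposited values with bars of 1 SE, filled where called, and orange diamonds are the same differences with the long-gene score in the fit. The diamonds stay near the circles for Lin28a, Lin28b and Hmga2, and drop towards 0 for Trim71, Igf2bp1, Igf2bp2 and Igf2bp3.

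Hmga2, a chromatin protein that bends AT-rich DNA and a much studied let-7 target, ran on a different clock from Lin28a. It was low on day 0, at 1.23 in X14 double, 1.71 in X14 single, 1.06 in X18 double and 0.378 RPKM in X18 single. On day 4, when the means of Lin28a and Lin28b were highest, Hmga2 stood at 0.695, 0.860, 0.915 and 0.910 RPKM, resting on 7 to 11 reads each. That was its lowest mean, but the step to day 0 (0.250 RPKM) was smaller than the spread (SD 0.551) and the log2 difference of -0.19 changed sign without X14 double (0.02) or X14 single (0.08). On day 8 the values were 4.68, 10.5, 4.11 and 6.68 RPKM. All 4 libraries of day 8 were above all of days 0 and 4, which 18.6% and 18.2% of all genes showed in this direction. The mean rose from 0.845 ± 0.103 on day 4 to 2.53 ± 1.23 on day 5 and 6.50 ± 2.91 RPKM on day 8 (log2 2.85 for day 8 against day 4, SE 0.48, limma adjusted p = 1.7e-05). Markers of some other lineages were higher over the same days, and neural markers were not. The 4 neural markers summed to between 54.1 and 111 RPM on day 4 and between 57.1 and 89.9 on day 8. The summed level of the 4 fibroblast markers lay between 12.9 and 33.2 RPM on day 4 and between 41.6 and 86.5 on day 8. That of the 4 trophoblast markers lay between 3.23 and 27.6 and then between 29.7 and 75.8 RPM, and that of the 4 endoderm markers was 0 and then between 2.61 and 27.7 RPM. The part of such cells in the rise of Hmga2 was not tested, and more cells of a type cannot be told apart from more RNA per cell in bulk libraries. Hmga2 was the only member called in that comparison, in which 15.7% of genes were called higher and 9.01% lower. It was also the only member called in any step from a day to the next, between days 4 and 5 (log2 1.45, SE 0.48, limma adjusted p = 0.0321, higher in all 4 series), where 4.83% of genes were called higher and 10.6% in either direction. The other steps, in which no member was called, called 0.0342% of genes from day 1 to day 2, 0.185% to day 3, 5.03% to day 4, 9.72% from day 5 to day 6, 0.890% to day 7 and 0.438% to day 8. That step lost its call without X14 single (1.21, 0.191), X18 double (1.65, 0.0875) or X18 single (1.33, 0.10), when all libraries were thinned to the shallowest depth (1.13, 0.108) and with only these days in the fit (1.45, 0.0522). The differences from day 0 on days 6, 7 and 8 (2.18, 2.56 and 2.66) held under every alternative, with 1.72, 2.14 and 2.31 with the long-gene score (limma adjusted p = 0.0138, 0.00153 and 3.9e-04). The call of day 5 (1.26, 0.0362) was lost with the score (1.02, 0.0908) and without X14 single (1.29, 0.0936), X18 double (1.47, 0.0781) or X18 single (0.65, 0.379).

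The 3 Igf2bp genes encode RNA-binding proteins that stabilize and localize mRNAs, and Igf2bp1 and Igf2bp3 are oncofetal. Igf2bp1 had the highest mean of the 7 genes on day 0, above Igf2bp3 by less than their spread (33.2 ± 17.1 RPKM, libraries 56.6, 34.9, 18.8 and 22.6 in the order X14 double, X14 single, X18 double, X18 single). It reached 75.3, 74.5, 73.6 and 62.0 RPKM on day 3 and returned to 44.7 ± 9.81 by day 8. The libraries of day 3 were close together and those of day 0 were not. It was called on days 2, 3 and 6 (log2 1.05, 1.23 and 1.11, limma adjusted p = 0.0185, 0.00137 and 6.6e-04). With the score in the fit these differences were 0.63, 0.79 and 0.39 (0.0230, 6.1e-04 and 0.0719), each below the fold minimum. Leaving out X18 double ended all 3 calls (0.78, 0.99 and 0.92), X18 single ended those of days 2 and 6 (1.06 and 0.97) and X14 single that of day 2 (1.07), while without X14 double day 4 was called too (0.91 with all libraries, 1.20 without).

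Igf2bp2 and Igf2bp3 moved less. Igf2bp2 rose from 11.1 ± 6.84 on day 0 to 21.6 ± 3.60 RPKM on day 4 (log2 1.12, SE 0.30, limma adjusted p = 0.00619), its single call. With the score that difference was 0.65 (0.00334), and it lost its call without X18 double (0.75, 0.194) or X18 single (1.07, 0.0559). The libraries of day 0 held 20.9, 10.8, 5.62 and 7.30 RPKM, so X14 double of day 0 was close to the mean of day 4. Igf2bp3 was flat from day 0 to day 4 (24.0 to 25.8 RPKM) and stood at 42.4 ± 2.95 on day 6, 40.0 ± 5.98 on day 7 and 41.1 ± 8.17 RPKM on day 8. Its 4 libraries of day 4 held 24.4, 26.5, 25.4 and 26.5 and those of day 8 held 35.6, 53.1, 36.5 and 39.2 RPKM. Every library of day 8 thus exceeded every library of day 4, but the difference was not called (log2 0.66, SE 0.29, limma adjusted p = 0.0755). Nor was any day called against day 0, where the values were 43.8, 25.2, 11.6 and 22.8 RPKM (log2 0.87, 0.77 and 0.80 on days 6, 7 and 8, limma adjusted p = 0.0145, 0.0266 and 0.0213, below the fold minimum). Without X14 double the 3 differences were 1.22, 1.07 and 1.17 and called, and with the score day 8 stood at 0.27 (0.349).

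Within the family the shares shifted. Igf2bp1 made up 47.7% ± 3.96 of the summed RPKM of the 3 genes on day 0, 62.0% ± 2.71 on day 3 and 42.8% ± 1.76 on day 8 (SD, n = 4). Igf2bp3 went the other way, from 36.8% ± 4.66 to 21.3% ± 1.95 and then 39.6% ± 4.04. Igf2bp2 stayed between 13.3% and 20.6% on all days. These shares were not adjusted for the long-gene score, whose part in the shift was not tested, and the Igf2bp3 share may include reads of 2410003K15Rik. On day 4 the order of the 7 genes by mean level was Lin28a (157 RPKM), Igf2bp1 (57.1), Igf2bp3 (25.7), Igf2bp2 (21.6), Trim71 (19.7), Lin28b (10.5) and Hmga2 (0.845), where the gaps between Igf2bp2 and Trim71 were smaller than their spread. On day 0 the order had been Igf2bp1, Igf2bp3, Igf2bp2, Lin28a, Trim71, Lin28b and Hmga2, with Igf2bp1 (33.2) and Igf2bp3 (25.8) within their spread, as were Igf2bp2 (11.1), Lin28a (10.9) and Trim71 (10.2). In X18 single Igf2bp3 was the higher of the first pair (22.8 against 22.6 RPKM).

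Between double and single libraries the clearest difference was in Lin28a, which was lower in the double library than in the single library of the same line and day in 17 of 18 pairs, and the exception was X14 on day 0, where the labels went against the X-linked genes. With day in the fit and line as a covariate the log2 difference, double minus single, was -1.06 (SE 0.21, limma adjusted p = 5.9e-04), and Lin28a was the only one of the 7 genes called (background 0.944% of genes lower and 2.05% higher). Without day 0 it was -1.15 (1.2e-06), where 1.61% of genes were called lower. On each of days 1 to 8 both double libraries were below both single libraries, which 0.595% of all genes showed on all 8 days. The single library exceeded its partner 9.87-fold in X14 and 4.08-fold in X18 on day 1, 1.67-fold and 1.31-fold on day 4, and 2.55-fold and 1.82-fold on day 8. Averaged over days 1 to 8, Lin28a stood at 68.9 RPKM in X14 double, 142 in X14 single, 78.4 in X18 double and 122 in X18 single. Within lines the difference was -1.0 in X14 (0.228) and -1.38 there without day 0 (0.00266). In X18 it was -1.13 (0.00642), and -0.92 without day 0 (0.00600, below the fold minimum). It was not called without X18 double (-1.0, 0.0796) or X18 single (-1.0, 0.138), and with voom it fell just below the fold minimum (-0.97, limma adjusted p = 1.4e-04). Since 4 culture series carry the labels, 2 each, an exact two-sided permutation test over series could not go below p = 0.333, and the p-values treat the libraries of a series as independent.

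Other members showed the same sign to a lesser extent. Lin28b was lower in double in 14 of 16 pairs of days 1 to 8 and both double libraries lay below both single libraries on 7 of the 8 days (1.83% of genes on at least 7). Its difference of -0.60 (SE 0.19, limma adjusted p = 0.0289) was below the fold minimum, as it was without day 0 (-0.70, 0.00621). Igf2bp3 was lower in double in all 16 pairs, by 1.02-fold to 3.20-fold, which 1.52% of genes showed, but its difference was small (-0.34, SE 0.12, limma adjusted p = 0.0509; -0.37 and 0.00756 without day 0). Trim71 (-0.29, limma adjusted p = 0.270) and Hmga2 (-0.06, 0.896) were not called, nor were Igf2bp1 (-0.07, 0.702) and Igf2bp2 (-0.03, 0.930). Hmga2 was lower in double in 10 of the 16 pairs, in 2 of 8 on days 1 to 4 and in all 8 on days 5 to 8. In the same 2 spans Igf2bp1 was lower in double in 2 and 7 of 8 pairs, Trim71 in 5 and 7 and Igf2bp2 in 4 and 4. Markers of cell state moved with the label too. The summed level of the 4 epiblast-like markers on day 4 was 1713 and 1647 RPM in double and 3400 and 2761 in single, and by day 8 the sums were 244 and 251 against 645 and 500. The 8 naive markers were the other way round on days 1 to 5, when both double libraries exceeded the single library of their line, with 5028 and 4885 RPM in double against 3674 and 3923 in single on day 2 and 1810 and 1993 against 1361 and 1591 on day 4. By day 8 they were lower in double (400 and 366 against 603 and 724). Germ cell markers were higher in double on every day from day 1 to day 8, with summed levels on day 2 of 400 and 395 RPM against 190 and 180 in single. Called between labels, all higher in double, were 1 of 8 naive markers (Prdm14), 2 of 4 germ cell markers (Dazl and Tfap2c) and 1 of 3 tested trophoblast markers (Gata3), and none of the epiblast-like, mesoderm, endoderm, neural, fibroblast or two-cell-like markers. These genes were named after their values were seen. The part of cell state in the differences of Lin28a and Lin28b was not tested.

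**Figure D4:**
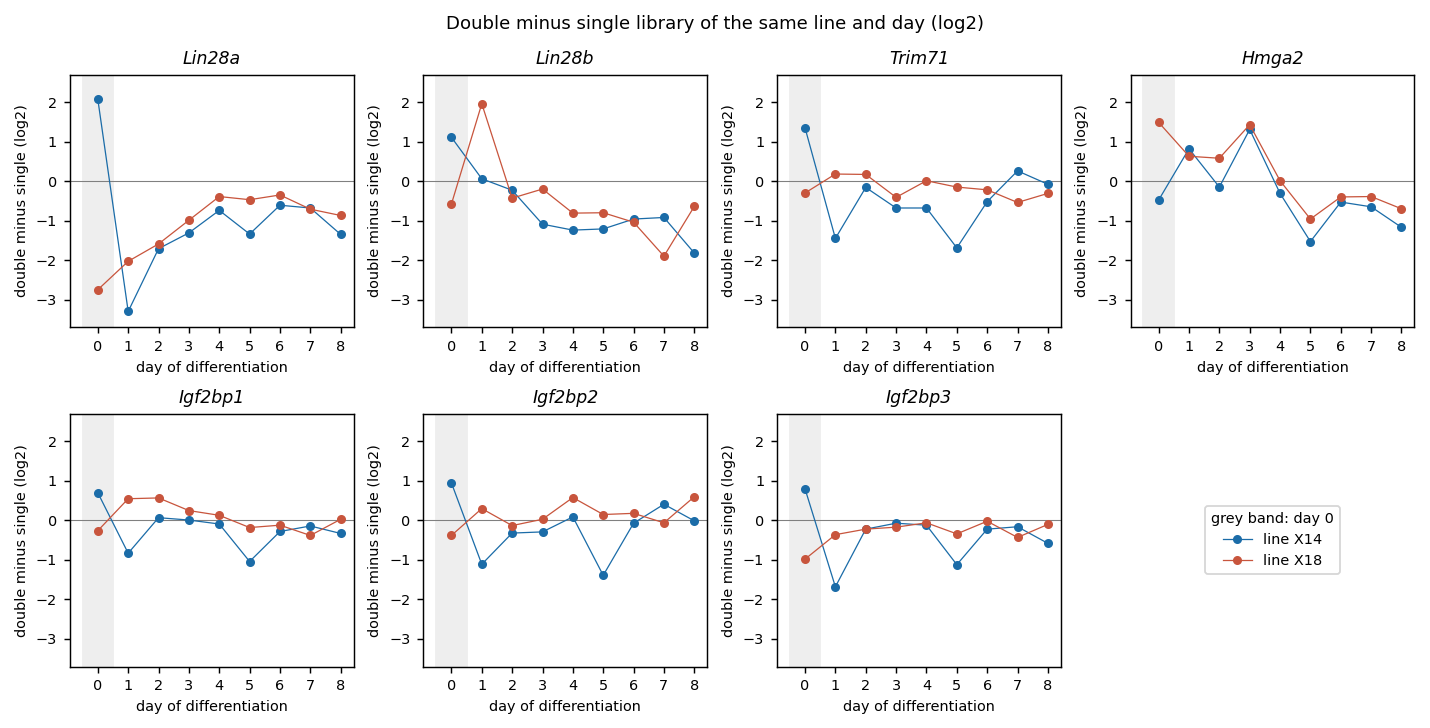
log2 level in the double library minus that in the single library of the same line and day (vertical axis) against day, blue for line X14 and red for X18, with day 0 shaded. Lin28a and Igf2bp3 lie below 0 in all 16 pairs of days 1 to 8, Lin28b in 14 and Hmga2 in 10. The 10 of Hmga2 include all 8 pairs of days 5 to 8.

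Whether the label difference changed with time was tested as the difference of days 7 and 8 less that of days 1 and 2. None of the 7 genes passed (background 2.14% of genes). For Lin28b the mean difference went from 0.34 to -1.32, a change of -1.66 (SE 0.48, limma adjusted p = 0.0650). This change was called in 4 of the alternatives: with quantile normalization (-1.88, 0.0183), a pseudocount (-1.57, 0.0439), voom (-1.57, 0.0467) and the long-gene score (-1.83, 0.0139). The X18 single library of day 1 held 0.998 RPKM of Lin28b, or 5 reads, the lowest of all libraries. Called in the same comparison were 1 of 8 naive markers and 1 of 4 epiblast-like markers, both with a negative change, and 2 of 2 tested two-cell-like markers with a positive one. For Lin28a the difference went from -2.16 to -0.90 (change 1.26, SE 0.58, 0.287) and for Hmga2 it went from 0.47 to -0.73 (change -1.20, SE 0.53, 0.261). No member was called between lines or for line by time. X18 minus X14 was negative for every member, from -0.52 for Hmga2 (limma adjusted p = 0.229) to -0.11 for Lin28b (0.772). That comparison called 0.0137% of genes, and line by time called 0.00684%. The X18 library was the higher in 2 of 18 pairs of the same day and label for Igf2bp1, in 4 for Hmga2 and in 6 to 8 for the others.

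Other genes of the pathway were followed by fixed lists. The let-7 processing and miRNA machinery (21 genes, such as Drosha, Dicer1, the Argonautes and the uridylating enzymes) all passed the filter. Of these 21 genes none was called on days 1 and 2, 4 were called higher on day 4 and 7 on day 8, with none lower. That is 4 and 7 of 21 where 12.2% and 23.9% of all genes were called higher, and the median log2 on day 8 was 0.57 against 0.23 over all genes. With the long-gene score in the fit 0 and 1 were called on days 4 and 8. The largest differences on day 8 were those of Ago4 (listed as Eif2c4, 0.463 ± 0.534 to 3.87 ± 3.66 RPM, log2 1.80, limma adjusted p = 0.0412), Tnrc6b, which recruits deadenylases to silenced mRNAs (20.9 ± 16.7 to 51.2 ± 27.1, 1.48, 0.0286), Ago2, the slicing Argonaute (Eif2c2, 8.82 ± 6.39 to 17.0 ± 2.48, 1.35, 0.0440), and Tut7, a uridylating enzyme of let-7 precursors (Zcchc6, 30.9 ± 19.6 to 68.4 ± 15.6, 1.32, 0.00429). Ago4 on day 0 was below the level of 3 reads, so its fold is set by few reads.

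Other let-7 targets (19 genes, all tested) included calls in both directions. On day 4 there were 8 higher and 1 lower, and on day 8 there were 7 higher and 1 lower, where 12.2% and 23.9% of all genes were called higher and 6.40% and 11.1% lower, with medians of 0.92 and 0.57 against 0.12 and 0.23 over all genes. With the score 5 and 6 were higher, and 1 and 2 lower. Of the 19 genes 14 held a seed match in the 3′ UTR, led by 8 in Nr6a1, more than any other tested gene. Arid3a, a DNA-binding factor, was late like Hmga2, at 6.32 ± 6.02, 8.17 ± 2.03 and 190 ± 107 RPM on days 0, 4 and 8 (log2 5.32 on day 8, limma adjusted p = 4.6e-09). Myc went from 0.578 ± 0.876 to 32.6 ± 23.5 and 39.8 ± 19.5 (5.3, 5.4e-07), and the growth factor receptor Igf1r from 4.65 ± 5.16 to 18.1 ± 7.96 and 39.3 ± 21.8 (3.66, 1.3e-04). The cyclin Ccnd2 instead had the highest of the 3 means on day 4, like Lin28a, at 1.16 ± 1.39, 35.9 ± 7.0 and 11.2 ± 7.24 (2.75, 7.7e-05). Myc and Ccnd2 had day 0 means below the level of 3 reads and no seed match of this kind.

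Of 6 mRNAs that Trim71 is known to repress, 2 were called higher and 1 lower on day 8, close to the background of 23.9% and 11.1% of all genes. The repressor E2f7 rose from 10.9 ± 8.74 to 38.8 ± 17.3 RPM (log2 2.02, limma adjusted p = 9.9e-04), Egr1 stood at 2.17 ± 3.23 and 6.22 ± 3.88 (1.86, 0.0286), and the pocket protein Rbl1 fell from 45.0 ± 8.91 to 22.1 ± 6.33 (-1.05, 7.9e-04). With the long-gene score 1 was higher and 1 lower. Igf2, for which the Igf2bp proteins are named, and its neighbour H19, which they also bind, rose far more than any member: Igf2 stood at 0.604 ± 0.472, 5.94 ± 4.29 and 1415 ± 899 RPM on days 0, 4 and 8, and H19 at 1.46 ± 1.33, 180 ± 63.3 and 15476 ± 8979 (limma adjusted p = 6.8e-15 and 6.7e-19 on day 8). Both were below the level of 3 reads in day 0 libraries on average. None of the genes in these lists was called between double and single over all days. H19 was called for the change of that difference from days 1 and 2 to days 7 and 8 (log2 2.73, SE 0.40, limma adjusted p = 2.8e-04, background 1.44% of genes with a positive change), and Igf2 was not (1.58, 0.234). The summed level of both was 3831 and 3483 RPM in double against 1007 and 683 in single on day 6, and 22711 and 26921 against 9207 and 8726 on day 8.

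Genes with the pattern most like each member over the 36 libraries were looked up among 9402 genes that averaged 10 RPM or more, and the Pearson's r values are a description over libraries that share days. Closest to Lin28a were Esrp1 (r = 0.95), a splicing regulator of epithelial cells, B3gnt7 (0.95) and Pfkl (0.94). Closest to Lin28b were Fam84b (0.84), Gm98 (0.83) and Naf1 (0.83). Hmga2 was closest to Dcbld2, Rbms1 and Phldb2 (0.88 each). Trim71 went with Zfp106 (0.95), Urb1 (0.92) and Snrnp200 (0.92), Igf2bp1 with Eif4g1 (0.93), Polr1a (0.93) and Ubap2 (0.92), Igf2bp2 with Sema4d, Ubqln1 (0.92 each) and Xpo6 (0.91), and Igf2bp3 with Mbtps1, Map3k11 (0.90 each) and Actn1 (0.89). Among the members themselves Trim71 and Igf2bp1 were most alike (0.88), followed by Igf2bp1 and Igf2bp2 (0.81) and by Trim71 and Igf2bp2 (0.76), the 3 genes that followed the long-gene score most closely. Lin28a and Lin28b reached 0.72, and Trim71 and Hmga2 only 0.05.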

How the data were processed

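RNA libraries (TruSeq, 75 bp single-end reads) were processed by the authors with trim_galore, then with tophat or hisat2 against mm10 (the submitters' notes name TopHat2 2.0.12), and were quantified in SeqMonk. The annotation version and use of strand are not stated. The values deposited by the authors are log2 RPKM, although the table is named for CPM, and a gene without reads is written as 0.9 read. With this rule 100% of values resolved to whole reads (tolerance 0.004 reads), which gave depth and RPM. All 36 value columns were mapped and 0 were left over. Intervals and floors cover counting error only.

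Genes with at least 1 RPM in at least 4 libraries (14612) were tested with limma 3.58.1 (R 4.3.3), the deposited log2 values being fitted by day and, for the label, by day and line. The fit was tested on simulated data with independent libraries and no effect of culture series or long genes, so that test does not cover these features. The members and gene lists were chosen with earlier results of these data known. Members were always named, of each list the 4 genes with the largest difference of day 8 from day 0 among those called on any day, and per member the 3 genes with the highest correlation.

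A replicate number stands for the same line and label on every day, so the numbers pair the days through the cell line. Deviations from the day mean correlated between days of a series with median r of 0.13 to 0.19. A fit with this number as block was an alternative, printed where it changes a call. Let-7 seed matches were counted in GENCODE M21 UTRs with Python 3.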

Additional observations from a re-analysis of the deposited data

Results flagged for a closer look

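In 6 of the 63 groups of 4 libraries (7 genes on 9 days) the highest or lowest library lay far from the other 3, where chance alone gives about 5% of groups. Trim71 stood at 20.1 RPKM in X14 double on day 0, against 5.74 to 7.85 in the other libraries, and at 25.9 in X14 single on day 1, against 9.50 to 11.5. Igf2bp1 stood low in X18 single on day 2 (45.7 RPKM against 68.0 to 71.8) and on day 3 (62.0 against 73.6 to 75.3). Igf2bp2 stood at 6.20 RPKM in X14 double on day 5, against 15.3 to 17.0, in the shallowest library. Igf2bp3 stood at 38.0 RPKM in X14 double on day 6, against 43.3 to 44.3. No library of Lin28a, Lin28b or Hmga2 lay apart in this way. The long-gene scores of the 4 libraries with Trim71 on day 0, Trim71 on day 1, Igf2bp1 on day 2 and Igf2bp2 on day 5 were 0.50, 0.40, -0.41 and -1.12, the highest or lowest of their day in each case, on the same side as the gene. That of the library with Igf2bp1 on day 3 was -0.01, neither the highest nor the lowest of its day. That of the library with Igf2bp3 on day 6 was 0.70, the highest of its day, whereas the gene was at its lowest there. What part the score had in these values was not tested.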

How the results depend on the processing

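Depth limits Hmga2 and Lin28b most, with 3 and 5 reads in their lowest libraries, and the 36 libraries come from 4 culture series. Of 866 alternative values of single genes 741 kept their direction and side of the threshold, 81 lost and 31 gained a call and 13 changed sign. Of 332 alternative counts of members called 281 stayed within 1.5 times the reported count. Every alternative chosen at the start was run.

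The number of members called changed as follows. Against day 0 it was 2 on day 2, and was 1 with 75th percentile scaling, quantile normalization and voom, and 0 with thinning to one depth, with only the 2 days in the fit and with the long-gene score. On day 3 (4 reported) it was 1 with only the 2 days in the fit and 1 with the score. On day 4 (4 reported) it was 2 with quantile normalization, with only the 2 days and with the score, and on day 6 (5 reported) it was 2 with the score. Without the fold minimum it was 6 on day 7 and 5 on day 8 (3 reported on each). For the step from day 4 to day 5 (1 reported) it was 0 with thinning and with only the 2 days. For day 8 against day 4 (1 reported) it was 2 with the replicate block and voom, and 3 with 75th percentile scaling, quantile normalization, thinning and the score. Between double and single (1 reported) it was 0 with voom, within X14 and within X18 without day 0, and 2 without the fold minimum. For the change of the label difference with time (0 reported) it was 1 with quantile normalization, the pseudocount, voom and the score.

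Leaving out a culture series at a time gave 0 to 4 members called on day 2, 1 to 5 on day 3, 2 to 5 on day 4, 1 to 6 on day 5, 3 to 7 on day 6, 2 to 7 on day 7 and 2 to 5 on day 8, 0 to 1 for day 5 against day 4, 1 to 2 for day 8 against day 4 and 0 to 1 for double against single.

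Signs changed for small values only, apart from Trim71 and Igf2bp1 on day 8. The difference of Trim71 from day 0 on day 8 (0.14) was -0.06 with 75th percentile scaling, -0.20 with quantile normalization, -0.06 with thinning, -0.77 with the score and -0.17 to 0.30 without a series. That of Igf2bp1 (0.54) was -0.02 with the score, and that of Hmga2 on day 4 (-0.19) ran from -0.68 to 0.08 without a series. The label difference of Hmga2 (-0.06) was 0.19 within X18, 0.03 there without day 0, 0.03 without the shallowest library and -0.30 to 0.19 without a series. The cause of these changes was not tested. Besides the long-gene score and left-out series, other scalings, thinning, voom, the filter or a fit of only the 2 days ended calls against day 0 of Lin28a on day 2, Lin28b on days 3, 7 and 8, Trim71 on days 3 and 4, Hmga2 on day 5, Igf2bp1 on days 2, 3 and 6 and Igf2bp2 on day 4.

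The replicate block changed the call of Trim71 on day 2 and of Lin28b for day 8 against day 4, and no other call of a member. The median of all genes for day 8 against day 0 was 0.23 as deposited, 0.02 with 75th percentile scaling and -0.09 with quantile normalization, and the share of calls that were higher was 68.1%, 57.6% and 50.4%. A fit with the culture series as a random block had a consensus correlation of -0.07 for the label and did not change the count there. Line and label, which together name the series, were already in that fit. It therefore cannot show whether libraries of a series are independent.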
